A study of Homo sapiens with 6 samples.

Results

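LTB and 9 further genes of the TNF superfamily, 6 ligands and 4 receptors in all, were described in T24 cells that overexpressed RNF112. The 10 members were LTB, TNF, TNFSF9, TNFSF10, TNFSF15, CD70, TNFRSF1A, TNFRSF10B, TNFRSF12A and FAS, found by gene symbol among the 23152 genes of the deposited tables. They were selected on counts and fold changes of this same comparison, so their differences between the groups are given as a description with no test. LTB entered as one of the 5 largest falls among the 1161 genes that were called lower, had a mean count of at least 10 and did not overlap between the groups. It stood at rank 5 with a log2 fold change of -2.74, between BDKRB2 at rank 4 (-2.77) and MUC5AC at rank 6 (-2.48). Of the 10 members, 9 passed edgeR's filter on low counts and TNFSF15 did not.

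T24 cells are a widely used line from a human bladder carcinoma, kept here in RPMI 1640 with fetal bovine serum. The study compared 3 samples carrying the empty vector (vector) with 3 samples overexpressing RNF112 (oeRNF112), a RING-finger ubiquitin ligase, to look for genes that respond to it. The treatment text in the sample labels speaks of siRNA and Lipofectamine 3000, whereas the study's methods use plasmids for overexpression, and neither says whether these libraries came from a transient or a stable culture. The samples are only called replicates, so the spread between them may be technical.

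The TNF superfamily consists of mostly membrane-anchored trimeric ligands and of receptors with cysteine-rich extracellular repeats. Receptors with a death domain, such as TNFRSF1A, TNFRSF10B and FAS, can recruit FADD or TRADD and activate caspases, and many of the receptors also bind TRAF proteins and activate NF-kB. LTB encodes lymphotoxin beta, which anchors lymphotoxin alpha at the cell surface and signals through LTBR. Most of the ligands are made by immune cells, while epithelial tumour cells commonly carry the receptors.

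The sequence just upstream of the start is shown for LTB and TNF, which lie next to each other in the class III region of the major histocompatibility complex, and for TNFSF10, the ligand with the lowest percentage of its vector level after LTB. Each run is the 250 bases before a RefSeq start on GRCh38.p14, written 5′ to 3′ on the gene's own strand. Capitals mark every match to any of 5 motifs searched on both strands: the NF-kB consensus, AP-1 (TGANTCA), the core of the interferon-stimulated response element (GAAA, any 2 bases, GAAA), the GC box (GGGCGG) and the TATA box (TATAAA). The LTB window is chr6:31582426-31582675 on the minus strand, the TNF window chr6:31575315-31575564 on the plus strand and the TNFSF10 window chr3:172523431-172523680 on the minus strand.
LTB: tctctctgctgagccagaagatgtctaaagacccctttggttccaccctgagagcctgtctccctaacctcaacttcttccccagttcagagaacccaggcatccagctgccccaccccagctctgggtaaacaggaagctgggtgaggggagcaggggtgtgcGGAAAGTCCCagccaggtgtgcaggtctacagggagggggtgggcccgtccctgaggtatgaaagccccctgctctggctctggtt
TNF: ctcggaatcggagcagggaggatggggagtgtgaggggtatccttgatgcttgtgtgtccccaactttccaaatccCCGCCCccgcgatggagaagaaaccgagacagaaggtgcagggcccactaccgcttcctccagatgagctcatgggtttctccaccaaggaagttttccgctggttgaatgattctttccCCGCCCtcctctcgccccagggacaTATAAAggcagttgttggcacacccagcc
TNFSF10: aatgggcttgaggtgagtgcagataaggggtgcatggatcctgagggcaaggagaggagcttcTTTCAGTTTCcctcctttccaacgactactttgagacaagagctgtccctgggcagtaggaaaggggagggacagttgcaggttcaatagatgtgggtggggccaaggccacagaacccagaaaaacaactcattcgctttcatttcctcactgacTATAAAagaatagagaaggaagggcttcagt

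In the LTB window the capitals are 1 match to the NF-kB consensus, which starts at base -86 and reads as the consensus on the opposite strand. The TNF window holds 2 GC boxes, at -174 and -54 and both on the opposite strand, and a TATA box at -29, while no match to the NF-kB consensus was in its 250 bases. The TNFSF10 window holds the interferon-response core at -187, on the opposite strand, and a TATA box at -31. Among the 35116 RefSeq promoter windows of this length, 9.96% held the NF-kB consensus, 6.57% AP-1, 3.02% the interferon-response core, 42.6% a GC box and 10.7% a TATA box. RefSeq windows were used for 7 of the 10 members. None was matched for CD70 and TNFRSF12A. Windows on chromosome 8, where TNFRSF10B lies, were left out of the member search. Besides LTB, only FAS among these 7 had the NF-kB consensus (in 1 of its 3 windows), and besides TNFSF10 only TNFSF9 had the interferon-response core. In the printed windows no match overlapped another. A match is a run of letters and was not tested as a binding site.

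The libraries held between 40029547 and 41259569 counted reads, and 1 count was worth 0.0236 to 0.0259 normalized CPM (counts scaled to a common library size with edgeR's TMM factors). RNF112 itself was counted 19 to 27 times in each vector sample and 29753 to 36963 times in each oeRNF112 sample, which may include reads from the construct. Keratins KRT7, KRT8 and KRT18 were abundant (31265 to 64094 counts), whereas no sample held over 2 counts of the urothelial or epithelial markers KRT20, UPK3A, TP63 or CDH1. The summed level of the 13 urothelial and epithelial markers in the table was 3532 to 4550 normalized CPM in vector and 2713 to 3255 in oeRNF112. In vector replicate 1, KRT7, KRT8 and KRT18 gave 1400, 1233 and 1122 of the sum of 3939. Of the 7 such markers tested, 5 were fitted lower in oeRNF112 and 2 higher (GATA3 and EPCAM). Of the 20 leukocyte markers listed, 14 were in the table, with a summed level of 13.8 to 15.7 normalized CPM in vector and 10.1 to 15.5 in oeRNF112. In vector replicate 1, LAPTM5 and CD8A gave 7.41 and 3.19 of the sum of 15.7.

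Per unit of gene length, 3 of the 4 receptors were the most abundant members. Deposited RPKM values (counts scaled by gene length and library size) are used for this order, because they allow levels of different genes to be compared. In the vector samples TNFRSF12A, the receptor of TWEAK, had the highest mean at 169 ± 19.6 RPKM (SD, n = 3), followed by the TNF receptor TNFRSF1A at 84.0 ± 3.21 and the TRAIL receptor TNFRSF10B at 45.1 ± 3.44. CD70 led the ligands at 27.7 ± 2.12 RPKM. TNF at 12.4 ± 1.34 RPKM and FAS at 11.2 ± 0.880 RPKM overlapped in their vector values, while all other neighbours in the order were separate there. TNFSF9 followed at 5.19 ± 0.683, TNFSF10 at 1.07 ± 0.125, LTB at 0.770 ± 0.104 and TNFSF15 at 0.00978 ± 0.00410 RPKM. Among the genes tested, TNFRSF12A lay at percentile 97.9 of vector RPKM and LTB at percentile 21.3. In oeRNF112 the order of the means was the same, and there TNF and CD70 overlapped, with TNF at 13.5 to 19.5 RPKM and CD70 at 18.8 to 22.1 RPKM.

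**Figure D1:**
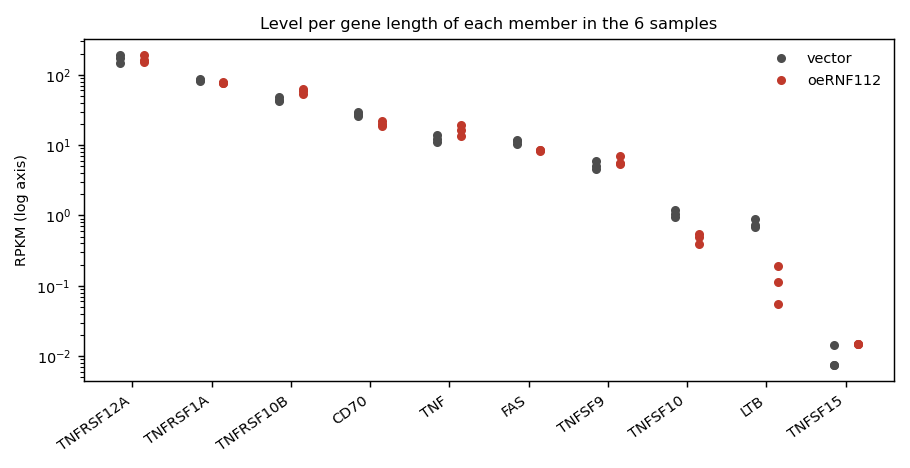
RPKM (log axis) of each member in each of the 6 samples, vector in grey and oeRNF112 in red, ordered by the mean over the vector samples. TNFRSF12A lies at or above 149 RPKM in every sample, and the oeRNF112 points of LTB (0.0552 to 0.194 RPKM) and TNFSF10 (0.393 to 0.553 RPKM) sit below all of their vector points.

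LTB was counted 27, 25 and 32 times in the vector samples and 4, 2 and 7 times in the oeRNF112 samples. All 3 oeRNF112 samples were below all 3 vector samples. Its RPKM was 0.732, 0.691 and 0.888 in vector against 0.112, 0.0552 and 0.194 in oeRNF112. The log2 fold change from edgeR was -2.74 (standard error 0.449), or 15% of the vector level. Summed over samples, 84 counts stood against 13, a ratio of 14.6% after scaling to library size, with an exact conditional 95% interval of 7.49% to 26.4% that covers counting error only. In bulk RNA, fewer cells that carry a transcript and less of it in each cell cannot be told apart. With at most 7 counts in each oeRNF112 sample, the size of the difference is known only roughly.

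LTB is a gene of lymphocytes in healthy tissue, so leukocyte markers are given beside it. CD3E was at 0 in 5 of the 6 samples and CD4 did not exceed 5 counts in any. PTPRC, which encodes the pan-leukocyte protein CD45, was counted 54, 37 and 40 times in vector and 33, 24 and 26 times in oeRNF112, so its groups did not overlap either. CD8A, a gene of cytotoxic T cells, went the other way without overlap, with 126, 131 and 121 counts in vector and 151, 221 and 143 in oeRNF112. Of the 7 leukocyte markers tested, the groups did not overlap for 2 lower and 1 higher in oeRNF112, and overlapped for 4. Among all genes tested, the groups did not overlap for 17.9% lower and 18.9% higher. LAPTM5, a lysosomal protein gene of haematopoietic cells, had 293, 258 and 231 counts in vector and 215, 108 and 125 in oeRNF112. LAPTM5 was the only 1 of these 7 that was called (log2 fold change -0.88, standard error 0.239, edgeR adjusted p = 0.0308), and the call was lost without vector replicate 1 or 3 or oeRNF112 replicate 2 or 3 and with library totals (range of the fits leaving out 1 sample -1.24 to -0.69). The 1 call is 14.3% of the 7, where 18.1% of all genes tested were called. The part of these markers in the LTB difference was not tested.

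The nearest gene to LTB, TNF, did not share its low values in oeRNF112. LTB occupies chr6:31580558-31582425 and TNF chr6:31575565-31578336 (GRCh38.p14, RefSeq), which leaves 2.2 kb between them. TNF encodes the prototype inflammatory cytokine of the family. It was at 21.1, 19.0 and 24.2 normalized CPM in vector and at 26.7, 22.3 and 31.2 in oeRNF112. The groups overlapped, since oeRNF112 replicate 2 lay below vector replicate 3. Its log2 fold change was 0.32 (standard error 0.139), 125% of the vector level and the highest fitted value among the members. Without oeRNF112 replicate 2 it was 0.44.

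LTA, the third lymphotoxin and TNF gene of this cluster, whose product pairs with lymphotoxin beta, was barely detected, with 3 to 5 counts in vector and 2 to 7 in oeRNF112. Its low counts left it out of the test. Among the 5 nearest annotated genes on each side of LTB, 7 were in the table and 5 were tested. Besides TNF, ATP6V1G2, NFKBIL1, LST1 and PRRC2A had log2 fold changes of 0.39, 0.06, 0.78 and 0.02, none with an adjusted p under 0.05 in edgeR's test. LST1 had 22, 4 and 7 counts in vector and 8, 40 and 12 in oeRNF112, a wide spread within both groups. LTBR, which binds the lymphotoxin alpha and beta heterotrimer, was abundant at 42.5 ± 4.29 RPKM in vector and 40.8 ± 2.11 RPKM in oeRNF112, with a log2 fold change of -0.16 (standard error 0.0993, edgeR adjusted p = 0.304).

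TNFSF10, which encodes the death ligand TRAIL, and CD70 were the other member ligands whose oeRNF112 values all lay below those of vector. The vector values of TNFSF10 were 3.77, 3.18 and 3.01 normalized CPM (149, 127 and 116 counts). In oeRNF112 they were 1.13, 1.63 and 1.42 normalized CPM (47, 67 and 60 counts). The lowest vector sample lay above the highest oeRNF112 sample by more than the range of either group. The log2 fold change was -1.25 (standard error 0.207), 42.1% of the vector level.

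The membrane death receptors of TRAIL had fitted values above 0, unlike their ligand. TNFRSF10B, its death receptor known as DR5, was at 183, 198 and 178 normalized CPM in vector and at 230, 210 and 241 in oeRNF112, with no overlap and oeRNF112 the higher. Its log2 fold change was 0.28 (standard error 0.0890), 122% of vector. TNFRSF10A, the other death receptor of TRAIL, was at 0.27 (standard error 0.124, edgeR adjusted p = 0.161) with overlapping groups. Of the decoy receptors, which bind TRAIL without a working death domain, TNFRSF10D was at 0.04 (standard error 0.0877, edgeR adjusted p = 0.766) and TNFRSF10C had 2 to 15 counts and was not tested. The soluble TRAIL-binding receptor TNFRSF11B, described with the other receptors, fell. TNFRSF10B overlaps RHOBTB2 by 67 bases at the gene's edge. Reads in such stretches are assigned by strand only if the counting used it, which is not given in the sources used here.

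CD70, the ligand of CD27 on lymphocytes, was at 78.5, 71.2 and 85.6 normalized CPM in vector and 53.5, 59.8 and 49.2 in oeRNF112. The groups were separate, and the fold change was -0.53 on the log2 scale (standard error 0.106), 69.1% of the vector level. CD27 itself had no count in any vector sample and at most 1 in oeRNF112, which is under the limit of 3 counts that a count of 0 allows. TNFSF9, the ligand of 4-1BB, lies 45.7 kb from CD70 on chromosome 19 and did not share its lower values. It was at 8.57, 7.60 and 10.1 normalized CPM in vector and 10.98, 8.88 and 8.48 in oeRNF112, with overlap and a log2 fold change of 0.11 (standard error 0.151). That sign turned without oeRNF112 replicate 1, to -0.01.

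TNFRSF9, which encodes 4-1BB, rose from 588, 580 and 463 counts to 715, 757 and 879 counts. The log2 fold change was 0.45 (standard error 0.122, edgeR adjusted p = 0.0314). The call was lost without vector replicate 1 or 3 or oeRNF112 replicate 1 or 3, and over the 6 fits that each left out a sample the value lay between 0.36 and 0.52. TNFSF15, a ligand of endothelial and myeloid cells, was counted 4, 2 and 2 times in vector and 4, 4 and 4 times in oeRNF112. These are at or near the floor of 3 counts (0.0709 to 0.0777 normalized CPM), so no fold change is given. Its receptor TNFRSF25 was at 0.39 (standard error 0.187, edgeR adjusted p = 0.176).

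**Figure D2:**
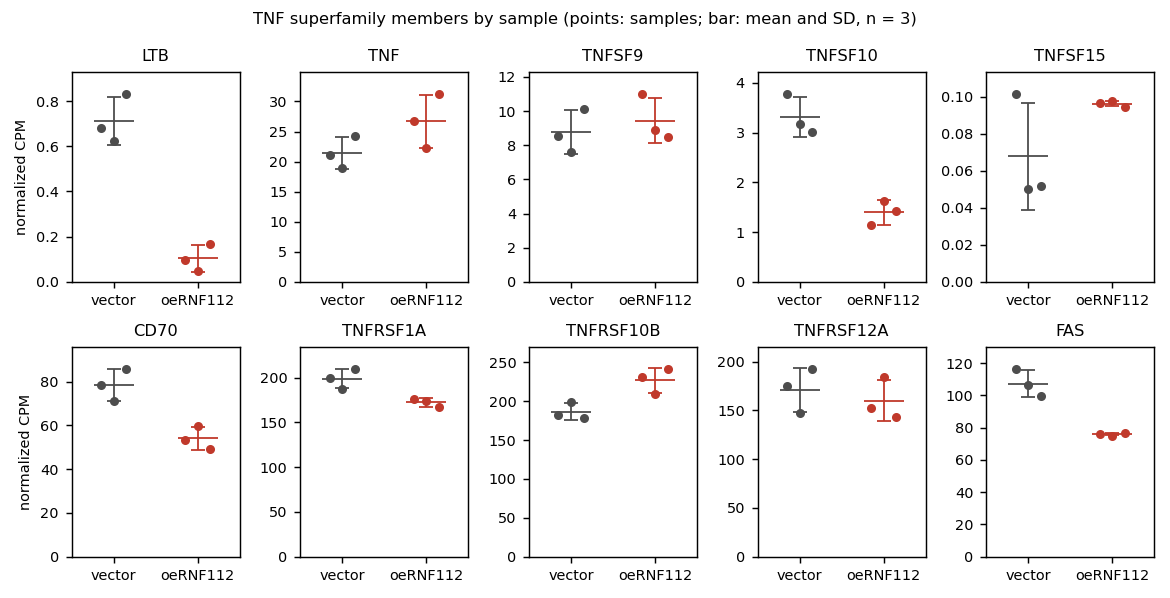
Normalized CPM of the 10 members in each sample (points) with the mean and SD of each group (n = 3), every axis starting at 0. LTB, TNFSF10, CD70, TNFRSF1A and FAS are lower in every oeRNF112 sample than in any vector sample, TNFRSF10B is higher in each, and TNF, TNFSF9, TNFSF15 and TNFRSF12A overlap.

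Of the member receptors FAS had the log2 fold change farthest from 0. FAS encodes the death receptor CD95 and was at 116, 106 and 99.4 normalized CPM in vector and 76.2, 75.1 and 76.6 in oeRNF112. The oeRNF112 samples lay closer together than the vector samples and below every one of them. This gave -0.50 on the log2 scale (standard error 0.0871), 70.8% of vector. Its ligand gene FASLG had at most 2 counts in any sample. FAS overlaps ACTA2, which encodes smooth muscle actin, over 27288 bases of the annotation, and ACTA2 had 1184, 1033 and 1345 counts in vector and 876, 956 and 750 in oeRNF112 (log2 fold change -0.55, standard error 0.137). The library kit kept strand, but the strand setting of the counting is not given in the sources used here, and the part of shared reads in the FAS values was not tested.

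TNFRSF1A, the main signalling receptor of TNF, differed little. Its values were 199, 188 and 209 normalized CPM in vector and 176, 174 and 167 in oeRNF112, which do not overlap, and its log2 fold change was -0.20 (standard error 0.0814), 86.8% of vector. The other TNF receptor, TNFRSF1B, known mainly from immune cells, rose from 11, 6 and 5 counts to 55, 44 and 82 counts. Its log2 fold change was 2.94 (standard error 0.399, edgeR adjusted p = 0.00139), yet its mean of 0.290 ± 0.0938 RPKM in oeRNF112 stayed far under the 77.8 ± 1.72 RPKM of TNFRSF1A there. TNFRSF12A, the most abundant member per length, was at 175, 147 and 192 normalized CPM in vector and at 152, 184 and 143 in oeRNF112, with wide overlap and a log2 fold change of -0.10 (standard error 0.124). Its ligand gene TNFSF12, which encodes TWEAK, was at -0.12 (standard error 0.129, edgeR adjusted p = 0.557).

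Over the members, 4 of the 9 tested were called lower by edgeR's test (LTB, TNFSF10, CD70 and FAS) and 0 higher, where 8.14% and 9.97% of all 14467 genes tested were called lower and higher. The groups did not overlap for 5 members lower in oeRNF112 and 1 higher, against 17.9% and 18.9% of all genes tested. Since the members were chosen with these values known, nothing is read from their counts. Their median log2 fold change was -0.20, beside 0.00 over all genes tested. In the fits under other settings the sign was kept for 8 of the 9 tested members, TNFSF9 being the exception. LTB ranged from -3.24 to -0.66, the last value coming from limma on log2(RPKM + 1), where the pseudocount of 1 is larger than any RPKM of LTB. TNFSF10 ranged from -1.36 to -0.49, CD70 from -0.60 to -0.42, FAS from -0.55 to -0.36 and TNFRSF10B from 0.24 to 0.38. The count of 0 members called higher depended on the setting. TNFRSF10B was called higher in 7 of 14 alternatives, and TNF in 1 of 14, the fit without oeRNF112 replicate 2.

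**Figure D3:**
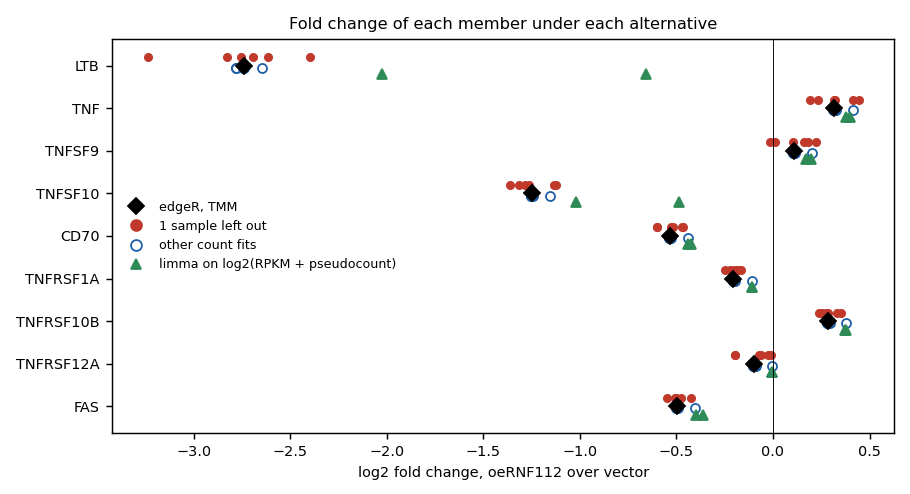
Log2 fold change (oeRNF112 over vector) of the 9 members tested in edgeR with TMM (black diamonds), with each sample left out in turn (red), in the other count fits (open blue) and in limma on log2(RPKM + pseudocount) (green triangles). Only TNFSF9 has points on both sides of 0, and the limma value of -0.66 for LTB lies farthest from its count-based values.

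The other genes of the superfamily were taken as a list of ligands and a list of receptors. Of 12 further ligands listed, 10 were in the table and 5 passed the filter. EDA, the ectodysplasin of skin appendage development, was the only 1 of these called (20%, where 18.1% of all genes tested were called). It rose from 62, 53 and 52 counts to 120, 126 and 156 (log2 fold change 1.18, standard error 0.194, edgeR adjusted p = 0.0034). The B-cell factor gene TNFSF13B was at 0.25 (standard error 0.225, edgeR adjusted p = 0.469). TNFSF14, which encodes the LTBR ligand LIGHT and lies 70.1 kb from CD70, had too few counts for the test, 4, 2 and 1 in vector against 17, 14 and 9 in oeRNF112. That is a ratio of 5.41 with a counting interval of 2.40 to 14.3. The median of the 5 tested ligands was -0.12.

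Of 25 further receptors, 23 were in the table and 15 were tested. Of these 15, 5 rose, 1 fell and 9 were not called, with a median log2 fold change of 0.19. The called share was 40%, where 18.1% of all genes tested were called, 9.97% higher and 8.14% lower. NGFR, the low-affinity neurotrophin receptor, rose from 35, 17 and 33 counts to 126, 171 and 175, a log2 fold change of 2.39 (standard error 0.280, edgeR adjusted p = 0.000664). TNFRSF11A, which encodes RANK, rose from 194, 218 and 187 counts to 415, 405 and 423 (0.97, standard error 0.12, edgeR adjusted p = 0.000855). TNFRSF19 rose as well (0.80, standard error 0.124, edgeR adjusted p = 0.00263). The 1 receptor that fell was TNFRSF11B, the gene of osteoprotegerin, a secreted decoy for RANK ligand that also binds TRAIL. It went from 114, 120 and 92 counts to 35, 10 and 18, a log2 fold change of -2.44 (standard error 0.362, edgeR adjusted p = 0.00209). CD40, next to LTBR the most abundant of the receptors not called, was at -0.12 (standard error 0.109, edgeR adjusted p = 0.477). NGFR, TNFRSF1B, TNFRSF11A, TNFRSF11B, TNFRSF19 and EDA kept their calls in all alternatives that could test them.

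**Figure D4:**
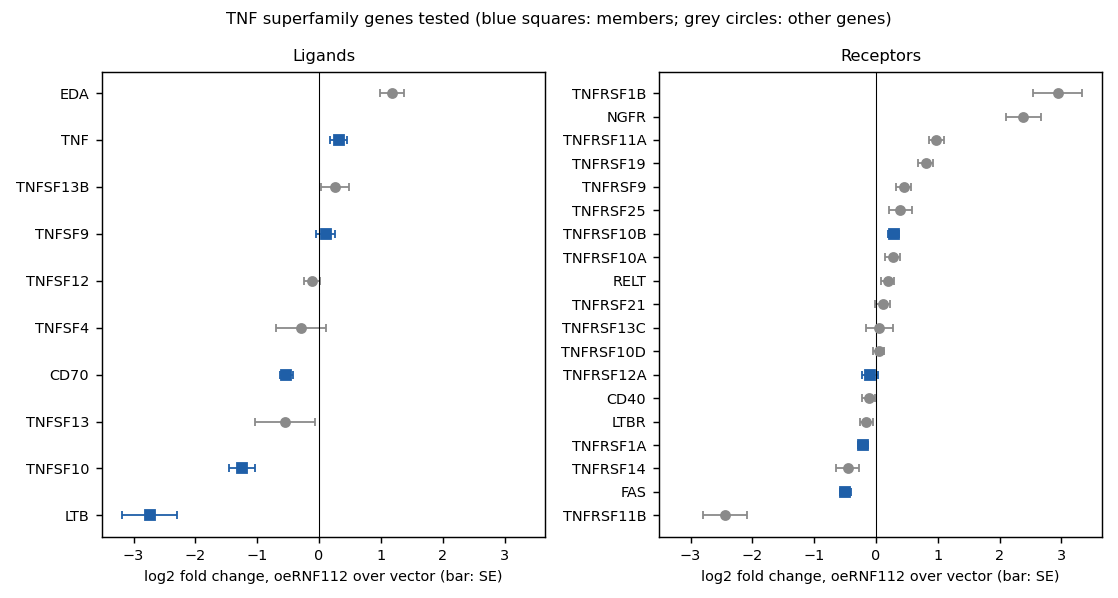
Log2 fold change with its standard error for the 10 ligands and 19 receptors tested, members as blue squares and other genes as grey circles. Among ligands LTB (-2.74) and EDA (1.18) are the ends of the range, and among receptors TNFRSF11B (-2.44) and TNFRSF1B (2.94).

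Genes that act behind the receptors were described by 3 lists. Of the 15 genes of the death-inducing arm 14 were tested, 1 rose and 1 fell, and the median was -0.10 on the log2 scale. The called share was 14.3%, where 18.1% of all genes tested were called. MLKL, the executor of necroptosis, rose from 1130, 1175 and 1127 counts to 1566, 1702 and 1738 (0.46, standard error 0.0877, edgeR adjusted p = 0.00675). The MLKL call was lost with the replicate number as a block. RIPK3, the kinase that activates MLKL, had at most 3 counts in any sample. BID, which links caspase 8 to the mitochondria, fell from 2185, 1845 and 2181 counts to 1685, 1794 and 1651 (-0.36, standard error 0.104, edgeR adjusted p = 0.0402). The BID call held only without vector replicate 2 among the 6 fits leaving out a sample, whose values lay between -0.45 and -0.30. FADD, the adaptor of FAS and the TRAIL receptors, was at -0.29 (standard error 0.125, edgeR adjusted p = 0.134) and passed the threshold without vector replicate 2, at -0.39. DAP3 was at -0.03 (standard error 0.0892, edgeR adjusted p = 0.855), and its sign depended on the scaling.

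All 23 genes of the receptor-proximal NF-kB and ubiquitin arm were tested. Of these, 4 rose, 2 fell and 17 were not called, with a median log2 fold change of 0.19. The called share was 26.1%, where 18.1% of all genes tested were called. TNFAIP3 encodes A20, a ubiquitin-editing inhibitor that is itself a well-known NF-kB target. It rose from 5450, 5889 and 5094 counts to 12340, 11192 and 15217 (1.16, standard error 0.112, edgeR adjusted p = 0.000283), and its call was kept in all 14 alternatives. Its partner TNIP1 rose by 0.37 (standard error 0.0888, edgeR adjusted p = 0.0187) and the TRAF2-binding ligase gene BIRC3 by 0.47 (standard error 0.121, edgeR adjusted p = 0.0263). CHUK, an IkB kinase, was just under the threshold at 0.35 (standard error 0.108, edgeR adjusted p = 0.0498). TAB1, a subunit of the TAK1 kinase complex, fell by 0.41 (standard error 0.0877, edgeR adjusted p = 0.012), and MAP3K14, the kinase NIK of the pathway downstream of LTBR, fell by 0.35 (standard error 0.0916, edgeR adjusted p = 0.0263).

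Of these 6 calls, those of TNIP1 and TAB1 were lost without vector replicate 1 (0.41 and -0.40) or oeRNF112 replicate 1 (0.38 and -0.42). Those of BIRC3 and CHUK were lost without either of these or vector replicate 3 or oeRNF112 replicate 3, with values of 0.36 to 0.55 and 0.26 to 0.42 over the 6 fits. The call of CHUK was also lost with the size factors of DESeq2. MAP3K14 kept its call only without vector replicate 2 among these fits, with values of -0.38 to -0.33, and lost it with library totals and limma, as BID did. RBCK1 and SHARPIN, subunits of the linear ubiquitin ligase that acts at TNFRSF1A, were at 0.34 (standard error 0.113, edgeR adjusted p = 0.0631) and 0.02 (standard error 0.103, edgeR adjusted p = 0.898), the latter with a sign that turned when single samples were left out. RBCK1 passed the threshold in 4 of 14 alternatives, none of which left out a sample.

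The 8 genes of the machinery that sheds TNF and its receptors from the cell surface were all tested. Their median was -0.06 on the log2 scale. There was 1 call, or 12.5%, where 18.1% of all genes tested were called. TIMP3, an inhibitor of the TNF convertase ADAM17, fell from 569, 649 and 595 counts to 253, 198 and 251, a log2 fold change of -1.45 (standard error 0.129, edgeR adjusted p = 0.000184), and was called in all 14 alternatives. RHBDF1 and FRMD8, which serve the maturation and stability of ADAM17, were at 0.34 (standard error 0.115, edgeR adjusted p = 0.0686) and -0.12 (standard error 0.0812, edgeR adjusted p = 0.326). RHBDF1 passed the threshold in 6 of the 14 alternatives and FRMD8 in 0. Over all 5 lists 16 of 65 genes tested were called, or 24.6%, with 11 higher and 5 lower, where 9.97% and 8.14% of all genes tested were called higher and lower. The lists were written with earlier results of these samples known, so these counts are a description.

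**Figure D5:**
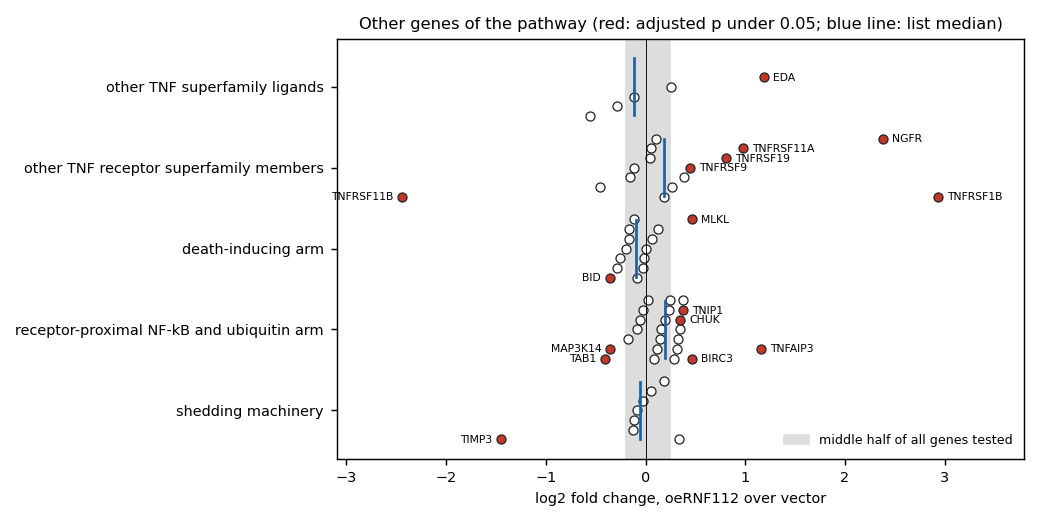
Log2 fold change of each tested gene on the 5 lists of other pathway genes, with called genes in red and named, the list median as a blue line and the range between the quartiles of all genes tested (-0.20 to 0.24) in grey. TNFRSF1B, NGFR, EDA and TNFAIP3 lie farthest to the right, and TNFRSF11B and TIMP3 farthest to the left.

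The genes closest to LTB in pattern were looked for among 14348 genes. The measure was the root mean square distance between profiles of log2 CPM over the 6 samples, taken relative to the vector mean. A prior count of 2 was used, which damps differences at low counts. A short distance to LTB thus rests largely on a fall of like size, and LTB was selected on its fall. The nearest were RHOJ (0.410 log2 units), XIRP2 (0.460), TNFRSF11B (0.491), ETV2 (0.506) and BDKRB2 (0.523). Each had at most 35 counts in any oeRNF112 sample. For TNF the nearest were LINC01599 (0.0709), IRGQ (0.0758), ACSL5 (0.0844), RPS6KL1 (0.0886) and DOK7 (0.0894), at smaller distances than those around LTB. Distances also depend on the counts and on the size of the change, which differ between LTB and TNF. Nothing is read from that difference.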

How the data were processed

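Stranded mRNA libraries of T24 cells, 3 vector and 3 oeRNF112, were sequenced. The authors deposited raw read counts for each gene. RPKM, which the authors deposited beside them, divide each count by gene length and library total. The submitters' processing notes name Trimmomatic 0.36, featureCounts of Subread 1.5.1 and GRCh38. The aligner, the annotation and the strand setting are not given in the sources used here. For all 20637 genes with at least 2 counts above 0, the deposited RPKM equalled count over total count over a single gene length within 0.1%, so both tables hold the same measurement.

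Counts were tested with edgeR 4.0.16 in R 4.3.3 (filterByExpr, TMM, quasi-likelihood F-test, Benjamini-Hochberg over 14467 genes), and a gene was called at an adjusted p under 0.05, two-sided. The test returns no standard error. Those given were derived as the absolute log2 fold change divided by the square root of the F statistic. Normalized CPM are counts scaled by the TMM-adjusted library size. A count of 0 allows up to 3 counts, and intervals and floors cover counting error only. Alternatives were DESeq2 1.42.0, its size factors, library totals, other filters, limma 3.58.1 on log2(RPKM + 1) or log2(RPKM + 0.1), a replicate block and leaving out each sample. The edgeR fit was tested on simulated counts, and the other steps were not.

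The members and lists were chosen with earlier results of these data known. Genes named were the members, RNF112, up to 4 called genes with the smallest p and up to 2 uncalled genes with the highest RPKM of each list, the 5 annotated genes on each side of LTB, and the 5 nearest profiles of LTB and TNF. Receptors or ligands paired with a member, TNFRSF19, MAP3K14, CHUK, RIPK3, TNFSF14, ACTA2, RHOBTB2, MUC5AC and single markers are not covered by it and were added once their values had been seen. Promoter windows, gene positions and distances came from RefSeq tables of GRCh38.p14, by symbol. Positions in a window are counted back from the start.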

Additional observations from a re-analysis of the deposited data

How the results depend on the processing

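Of 2620 genes called, 1442 were higher and 1178 lower. Library totals gave 2020 higher and 659 lower and moved the median of all genes by under 0.1 on the log2 scale (0.0962). With limma the split was 1863 and 669 for log2(RPKM + 1) and 1919 and 682 for log2(RPKM + 0.1). With the replicate number as a block (replicate block) 876 genes were called, 618 higher and 258 lower, and 8 list genes in place of 16, 6 higher and 2 lower. The block also ended the calls of CD70 (-0.53) and FAS (-0.50) and kept those of LTB and TNFSF10. Among the other genes named, it ended those of MLKL, BID, TNFRSF9, TNIP1, TAB1, BIRC3, CHUK, MAP3K14, ACTA2, KRT7, KRT18 and EPCAM. Between samples of the same number, deviations from the group means correlated at -0.116, -0.363 and -0.296 over the genes tested. No vector sample correlated best with its own number. Such deviations sum to 0 within each group, so correlations within and across numbers depend on each other. The numbers were not taken as pairs. Leaving out single samples gave 1061 calls (without vector replicate 1) to 3387 (without vector replicate 2), and 9 (without oeRNF112 replicate 1) to 23 (without vector replicate 2) list genes. DESeq2 called 3243 genes and 18 list genes.

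Near 0, signs turned for 3 genes. TNFSF9 lay between -0.0147 and 0.225 when samples were left out. DAP3 was at 0.0658 with library totals and at 0.0652 and 0.0664 with limma and between -0.0896 and 0.0141 when samples were left out, and SHARPIN between -0.0338 and 0.126. The causes were not tested. LTB could not be tested with at least 10 counts in every sample. Of 475 values of 34 other named genes under the alternatives, 390 kept sign and side of the threshold, 65 lost the call, 11 gained it and 9 turned sign. Depth limits LTB in oeRNF112, TNFSF15, LTA, FASLG and CD27, which had 7 or fewer counts in each sample there.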

Other observations

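Several genes of the marker and receptor lists had values in too few reads for the test. TNFRSF17, which encodes the plasma cell receptor BCMA, had 7, 9 and 10 counts in oeRNF112 against 1, 0 and 6 in vector. LYZ, the lysozyme gene, had 4, 5 and 8 counts in vector and 97, 2 and 6 in oeRNF112, so its high value came from oeRNF112 replicate 1 alone. The epithelial adhesion gene EPCAM rose from 94, 66 and 99 counts to 143, 183 and 165 (log2 fold change 0.84, edgeR adjusted p = 0.0208), a call that was lost without vector replicate 1 or oeRNF112 replicate 2 or 3 (range 0.67 to 0.97), while KRT7 and KRT18 were at -0.48 and -0.51. These genes were chosen after their values were seen.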
